A study of Mus musculus with 3 samples.

Results

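The metallothioneins Mt1, Mt2 and Mt3 were followed across the cell classes of the mouse dentate gyrus, the hippocampal region that forms new granule neurons in adult life. They were chosen by their levels in these same data and taken by gene symbol, as 3 of the 15535 genes listed in at least 1 of 3 single-cell count tables, and all 3 were listed in every table. The tables came from 3 droplet libraries, 1 per group. The runner library held dentate gyrus of mice that were 8 weeks old and had a running wheel for 12 days. The aged library held tissue of mice of 14 months that had no wheel. The control library held 8-week-old littermates of the runners in standard housing. All samples are labelled with the strain hGFAP-eGFP, in which a human GFAP promoter drives a green fluorescent protein in astrocytes and stem cells, whereas the series text calls the mice WT and gives the reporter (as hGFAPeGFP) for the aged mice. If that text holds, strain and age cannot be told apart in the aged library. How many mice went into a library is not stated in any source at hand. The question put by the design was how cells of this region differ with running and with age.

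Metallothioneins are small cysteine-rich proteins that bind zinc and copper ions and buffer them in the cell. Mt1 and Mt2 are made in most tissues, and their transcription is known to be raised by metals, through the zinc-sensing factor Mtf1 and its metal response elements, and by glucocorticoids and oxidative stress. Mt3, the brain form first isolated as a growth inhibitory factor, is known from astrocytes and from neurons that load zinc into synaptic vesicles, among them dentate granule neurons. Astrocytes are the main site of Mt1 and Mt2 in the resting brain.

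The 3 genes lie in a row on the plus strand of mouse chromosome 8, shown here because Mt1 and Mt2 moved together in the counts below. In GRCm38, Mt3 spans chr8:94152607-94154146, Mt2 chr8:94172664-94173568 and Mt1 chr8:94179082-94180327, each with 3 exons in its first listed transcript. Mt2 ends 5513 bases before Mt1 begins, and Mt3 ends 18517 bases before Mt2. Mt4, the fourth gene of the row, was not listed in any table. The 250 bases before the start that RefSeq gives each gene (GRCm38.p6, plus strand) are printed below, at chr8:94178839-94179088 for Mt1, chr8:94172368-94172617 for Mt2 and chr8:94152357-94152606 for Mt3. Capitals mark the letters TGCACNC or TGCGCNC, the core of a metal response element, on either strand; no 2 matches overlap.
Mt1: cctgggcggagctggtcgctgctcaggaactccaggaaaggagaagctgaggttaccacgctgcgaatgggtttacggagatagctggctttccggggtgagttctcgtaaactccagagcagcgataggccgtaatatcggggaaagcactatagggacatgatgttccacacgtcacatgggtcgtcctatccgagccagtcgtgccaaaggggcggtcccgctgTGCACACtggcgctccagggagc
Mt2: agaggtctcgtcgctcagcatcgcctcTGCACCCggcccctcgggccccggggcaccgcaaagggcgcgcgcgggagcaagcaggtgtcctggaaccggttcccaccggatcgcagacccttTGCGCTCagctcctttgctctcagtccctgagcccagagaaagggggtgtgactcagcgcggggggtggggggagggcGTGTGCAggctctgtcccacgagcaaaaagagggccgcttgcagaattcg
Mt3: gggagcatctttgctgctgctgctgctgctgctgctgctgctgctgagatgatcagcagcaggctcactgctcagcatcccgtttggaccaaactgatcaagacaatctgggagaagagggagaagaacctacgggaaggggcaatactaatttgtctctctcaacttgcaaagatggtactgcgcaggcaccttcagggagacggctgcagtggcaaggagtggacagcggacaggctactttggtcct

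The window of Mt2 held 3 matches, which begin 223, 128 and 50 bases before the start, and 1.26% of 32851 RefSeq promoters hold at least that many. Mt1 had 1 match 23 bases before its start, as 21.4% of promoters have at least 1, and the Mt3 window had none. In GENCODE M21, shorter transcripts of Mt1 and Mt3 begin 70 and 54 bases before the start codon, inside the stretch that the longest transcripts count as exon. The part of that stretch next to the start codon was therefore searched as well. The 180 bases before the start codon held 2 matches in Mt1, 3 in Mt2 and 3 in Mt3. They begin between 107 and 172 bases before the codon. In each of the 3 genes, the bases between these 180 and the RefSeq window were not searched. Of 12158 genes with a leader of that length, 17.5% hold at least 1 match, 3.24% at least 2 and 0.584% at least 3. A match is a run of letters in a window and not a measured binding site. The 3 genes differ in their transcripts: no window of 30 bases was shared between any 2 of them, and 4 of 574 windows in Mt2 were also found in another gene, Pip5k1a.

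The tables held 3328 runner, 2421 aged and 2356 control barcodes, of which 963, 391 and 512 were used, with at least 200 genes, under 10% mitochondrially encoded unique molecular identifiers (UMIs) and no doublet call. Median depth was 1747, 1409 and 1460 UMIs per cell. At most 10 barcodes were shared between 2 tables, and among the cells used 2 were shared, between runner and aged. Classes were named from marker genes after clustering without Mt1, Mt2 and Mt3. As a check of the tissue label, the granule neuron factor Prox1 had 54, 7 and 23 UMIs in granule-neuron-like cells of runner, aged and control. It was found in 34 of 58, 4 of 14 and 14 of 31 of these cells. Nrgn, from the list of pyramidal neuron markers, was among the leading genes of the class, which may therefore hold other mature neurons. Levels are given as UMIs of a gene per 1000000 UMIs of the class (CPM). Since the kit counts the 3' end of each molecule once, these do not scale with transcript length. No p-value was computed, because a group has 1 library. Intervals are 95% and cover counting error only, so they do not include the spread between cells, between animals or between libraries. The words "higher" and "lower" describe these 3 libraries. Since the members were selected on levels in these tables, their values stand as a description.

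Astrocyte-like cells had the highest level of all 3 genes in all 3 libraries, among classes with at least 10 cells. This class took 118 runner, 52 aged and 64 control cells, expressed all 20 astrocyte markers of the list in each library, and covers any radial stem cells, which share most of these markers. Cluster 9 of this class had Fabp7 and Hopx, from the list of stem cell markers, among its leading genes. It held 33.9% of the runner, 15.4% of the aged and 25% of the control cells of the class, and cluster 4 held the others. Mt1 stood at 9424 CPM in runner (1617 UMIs), 12429 CPM in aged (968 UMIs) and 14634 CPM in control (1272 UMIs). Mt2 stood at 2652, 3967 and 5051 CPM in runner, aged and control. Mt3 stood at 6708, 6240 and 7570 CPM in runner, aged and control. Together they took 1.88% of all astrocyte-like UMIs in runner (1.81 to 1.94), 2.26% in aged (2.16 to 2.37) and 2.73% in control (2.62 to 2.84). Mt1 was the 6th most counted gene of the class in runner and aged and the 4th in control, and Mt3 ranked 7, 9 and 8. A UMI of Mt1 was found in 98.3% of runner and 100% of aged and control astrocyte-like cells. The matching shares in microglia-like cells, which should hold little astrocyte RNA, were 64.9%, 55.7% and 78.7%, at median depths of 1577, 1408 and 1477 UMIs against 1334, 1226 and 1302 UMIs in astrocyte-like cells.

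**Figure D1:**
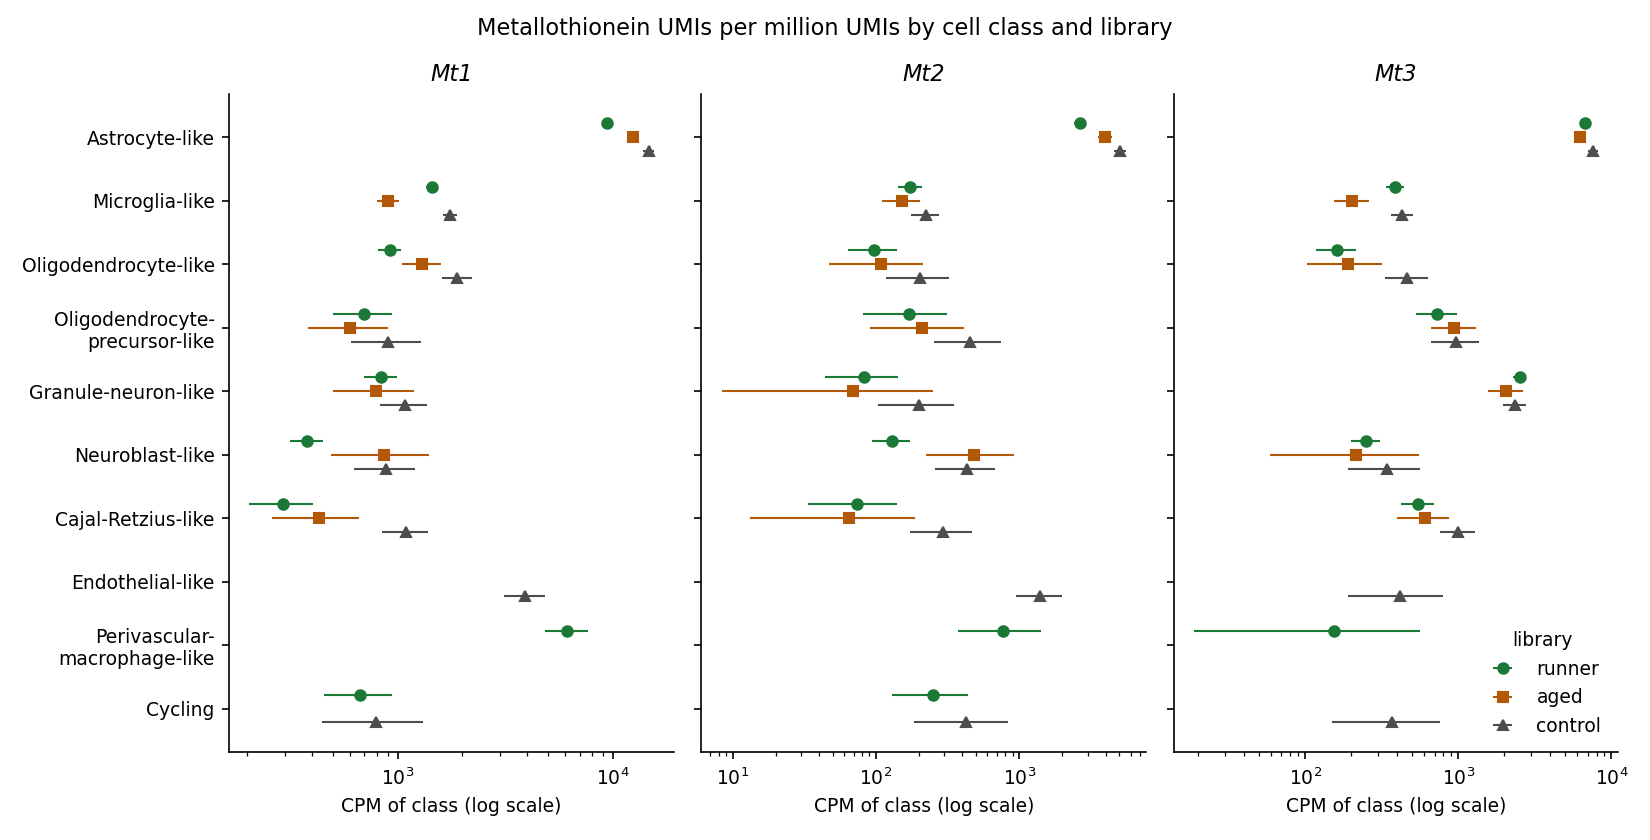
Level of Mt1, Mt2 and Mt3 in CPM (log axis) in each class with at least 10 cells, by library; points are the summed UMIs of the class and bars are exact Poisson 95% intervals. Classes at 0 UMIs are not drawn. Astrocyte-like cells lie farthest right in every panel, and granule-neuron-like cells come second for Mt3 alone.

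Below the astrocyte-like class the order differed by gene. For Mt3 the second class was the granule-neuron-like one, at 2512 CPM in runner (2270 to 2772), 2040 CPM in aged (1553 to 2631) and 2342 CPM in control (1971 to 2762). That was lower than in astrocyte-like cells by a factor of 2.67, 3.06 and 3.23, and above the next class by a factor of 3.44 in runner (2.51 to 4.83), 2.16 in aged (1.41 to 3.37) and 2.35 in control (1.73 to 3.23). These neurons carry the vesicular zinc loader Slc30a3, at 223, 207 and 149 CPM in runner, aged and control, against at most 6.88 CPM in astrocyte-like and microglia-like cells. Their Mt1 level, 839, 795 and 1079 CPM, did not stand apart from that of the classes next to it in the order. Oligodendrocyte-precursor-like cells, the dividing progenitors of myelinating cells, held 730, 943 and 965 CPM of Mt3. Cajal-Retzius-like cells, early-born reelin neurons, held 546, 602 and 996 CPM of Mt3, and the intervals of these 2 classes overlapped in each library.

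In runner and control, small vascular classes came second for Mt1 and Mt2. Perivascular-macrophage-like cells, counted in runner (10 cells), held 6117 CPM of Mt1 (4843 to 7624), of which 1 cell gave 28 of 79 UMIs. Their Mt2 level of 774 CPM rests on 10 UMIs, 9 of them from 1 cell. Endothelial-like cells, counted in control (16 cells), held 3908 CPM of Mt1 (3117 to 4838) and 1396 CPM of Mt2 (942 to 1992). Only 1 runner and 2 aged cells were endothelial-like, so this class was not compared between libraries. Microglia-like cells, the resident macrophages, held 1445 CPM of Mt1 in runner, 904 CPM in aged and 1752 CPM in control. Without 6 runner cells of this class that were called astrocyte by a marker count per cell, the runner value was 1216 CPM (1128 to 1309). Oligodendrocyte-like cells held 919, 1298 and 1893 CPM of Mt1, and their order against microglia-like cells was reversed between runner and aged. The lowest Mt1 level of each library was in Cajal-Retzius-like cells for runner (293 CPM) and aged (430 CPM) and in cycling cells for control (795 CPM). Each of these had an interval that overlapped that of the class just above it.

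The makeup of the metallothionein UMIs also separated the classes, a comparison that does not depend on scaling between libraries. Mt3 made up 73.1% of them in granule-neuron-like cells of runner (69.2 to 76.8), 70.2% in aged (59.3 to 79.7) and 64.7% in control (57.9 to 71.0). In astrocyte-like cells the Mt3 share was 35.7%, 27.6% and 27.8%. In oligodendrocyte-like cells it was 13.6%, 11.9% and 18.1%, and Mt1 made up 78.2%, 81.4% and 74.0%. Microglia-like cells were close to this, with Mt1 shares of 72.0%, 71.9% and 72.8%. Mt2 was the least counted of the 3 genes in the astrocyte-like, microglia-like, oligodendrocyte-like, oligodendrocyte-precursor-like, granule-neuron-like and Cajal-Retzius-like classes of every library. In neuroblast-like cells, the immature neurons, it outnumbered Mt3 in aged (9 against 4 UMIs) and in control (19 against 15 UMIs). Each astrocyte-like UMI of Mt2 came with 3.55 UMIs of Mt1 in runner (3.20 to 3.95), 3.13 in aged (2.75 to 3.57) and 2.90 in control (2.60 to 3.24). In microglia-like cells the same ratio was 8.32, 5.98 and 7.88.

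**Figure D2:**
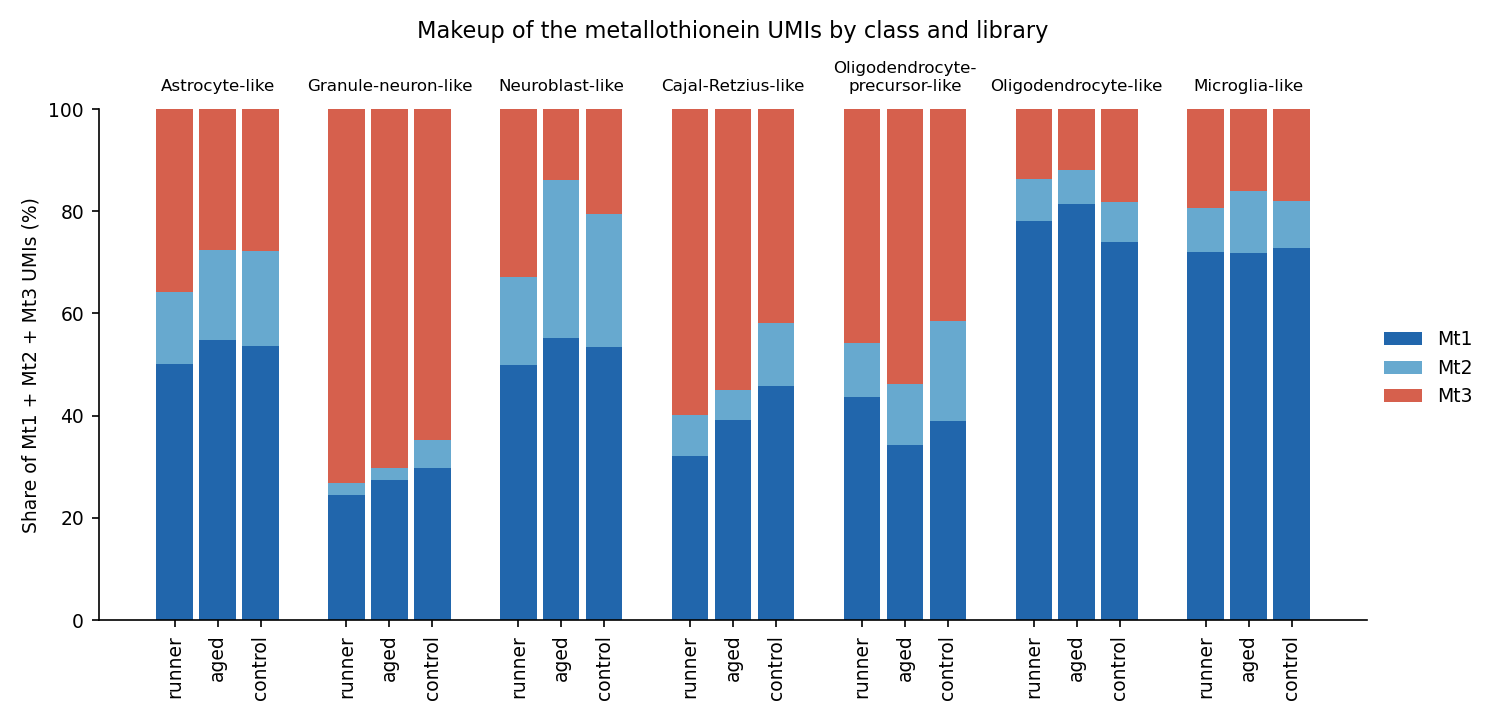
Share of Mt1, Mt2 and Mt3 in the sum of their UMIs, in percent, for 7 classes and each library. The Mt3 part is widest in granule-neuron-like cells, at 73.1%, 70.2% and 64.7% in runner, aged and control, and narrow in oligodendrocyte-like and microglia-like cells.

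RNA set free by broken cells can place astrocyte transcripts in the droplets of other cells, so the summed astrocyte markers were counted beside the members. They stood at 35491, 33203 and 33710 CPM in astrocyte-like cells of runner, aged and control. In microglia-like cells they stood at 1061, 974 and 1252 CPM, with 20, 15 and 19 of the 20 markers detected, and in granule-neuron-like cells at 1577, 1452 and 1627 CPM. The runner microglia-like class includes 6 cells called astrocyte by a marker count per cell. They gave 121 of its 617 astrocyte marker UMIs and 138 of its 840 Mt1 UMIs. Per astrocyte marker UMI there were 0.266 UMIs of Mt1 in astrocyte-like cells of runner, 0.374 in aged and 0.434 in control. In microglia-like cells there were 1.36, 0.928 and 1.40, and in granule-neuron-like cells 0.532, 0.548 and 0.663. For Mt3 the figures were 0.189, 0.188 and 0.225 in astrocyte-like cells against 1.59, 1.40 and 1.44 in granule-neuron-like cells. Oligodendrocyte-precursor-like cells had fewer Mt1 UMIs per marker UMI than astrocyte-like cells in each library, at 0.153, 0.176 and 0.222. Neuroblast-like cells had fewer in runner (0.231) and control (0.307) but not in aged (0.593). The part that free RNA had in those low levels was not tested.

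In the runner library, astrocyte-like cells held less Mt1 and Mt2 than in control, and Mt3 was close to the control level. The runner over control ratio of CPM was 0.644 for Mt1 (0.598 to 0.694), 0.525 for Mt2 (0.459 to 0.60) and 0.886 for Mt3 (0.804 to 0.977). Mt1 and Mt2 were lower by more than the 1.5-fold used here as a limit of size, and Mt3 was not. Among the 1965 genes with at least 20 UMIs in the 2 libraries, 10.4% were lower past 1.5-fold, and 3.00% were so with an interval below 1. Mt1 and Mt2 were among that 3.00%. An interval below 1, which Mt3 also had, was found for 4.43% of the genes tested and for 15.9% of those with at least 100 UMIs. For Mt3 it lay below 1 in only 6 of the 13 other processing settings that gave an interval. For the 320 genes with at least 100 UMIs, where counting error is smaller, the share lower past 1.5-fold was 7.19%. The Mt1 ratio lies close to that limit, and was past it in 6 of 14 other processing settings, against 14 of 14 for Mt2. Some of these settings gave the same value as each other or as the reported one. Of the 16 genes with at least 1000 UMIs, Mt1 had the lowest ratio. Among all 1965 genes tested, ranked from the lowest ratio, Mt1 was 172nd, Mt2 70th and Mt3 613th. The median ratio of those 1965 genes was 1.01. The summed astrocyte markers differed less, at a ratio of 1.05 (1.01 to 1.10). Set against those markers, Mt1, Mt2 and Mt3 gave ratios of 0.612, 0.499 and 0.842. Mt1 and Mt2 thus differed more than Mt3 did: the ratio of Mt1 to Mt3 was 0.727 of the control ratio (0.644 to 0.820) and that of Mt2 to Mt3 was 0.593 of it (0.504 to 0.697). The count of Mt1 per Mt2 was 1.23 times the control value (1.06 to 1.43).

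In the aged library the 3 genes were also lower than in control in astrocyte-like cells, and by like amounts. The aged over control ratio was 0.849 for Mt1 (0.780 to 0.924), 0.786 for Mt2 (0.677 to 0.911) and 0.824 for Mt3 (0.732 to 0.928). None was lower past 1.5-fold, which 14.0% of 1157 genes were. All 3 had an interval below 1, as did 5.62% of those genes, and as did 18.7% of the 171 genes with at least 100 UMIs. The ratio of Mt1 to Mt3 was 1.03 times the control ratio (0.892 to 1.19). The runner and aged ratios have their denominator in common, so a high control value would lower each of them.

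**Figure D3:**
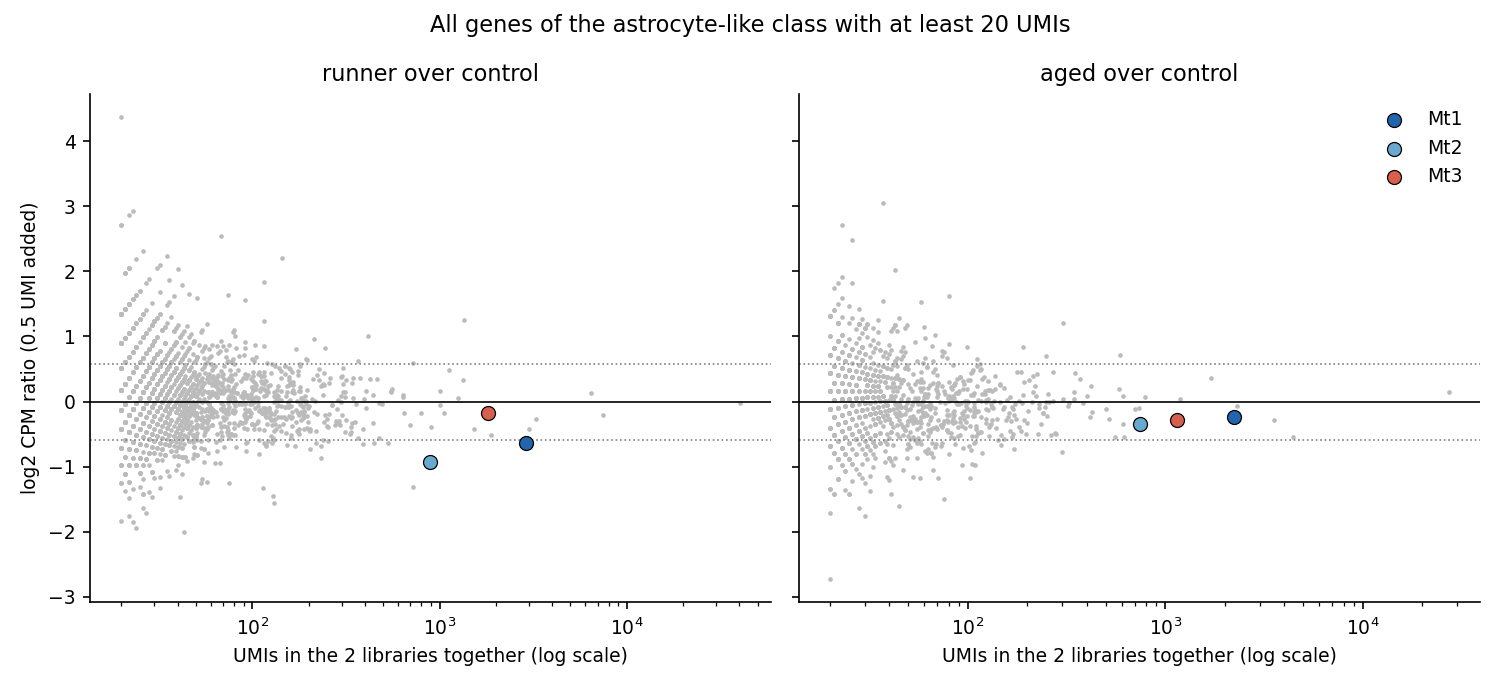
Log2 CPM ratio to control (0.5 UMI added to each count) against the UMIs of a gene in the 2 libraries together (log axis), for every gene of the astrocyte-like class with at least 20 UMIs; dotted lines mark 1.5-fold. In the runner panel Mt1 and Mt2 lie below the lower dotted line and Mt3 near 0, and in the aged panel all 3 lie between 0 and that line.

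The same direction was seen outside the astrocyte-like class. Across 7 classes with at least 20 cells in both libraries, the runner over control ratio was below 1 in 7 for Mt1 (0.268 to 0.824), in 7 for Mt2 (0.250 to 0.781) and in 6 for Mt3. The exception was Mt3 in granule-neuron-like cells at 1.07 (0.883 to 1.31). Of 554 genes with at least 20 UMIs in every one of these classes, 9.03% were below control in all 7. The interval lay below 1 in 5 of 7 classes for Mt1, 6 for Mt2 and 3 for Mt3. Of the genes tested, it did so for 4.43% in astrocyte-like, 4.91% in microglia-like, 5.50% in oligodendrocyte-like, 4.65% in oligodendrocyte-precursor-like, 5.31% in granule-neuron-like, 2.94% in neuroblast-like and 4.49% in Cajal-Retzius-like cells. In oligodendrocyte-like cells the ratios were 0.486, 0.475 and 0.345 for Mt1, Mt2 and Mt3, lower past 1.5-fold in each case, beside 14.1% of 2766 genes. Cluster 13 of this class, which took its name from the newly formed oligodendrocyte list, held 9.17% of its runner cells, none of its aged cells and 15.9% of its control cells, and cluster 3 held the others. In oligodendrocyte-precursor-like cells Mt2 alone was past 1.5-fold, at 0.375 (0.151 to 0.892) and 10 runner UMIs, beside 14.3% of 817 genes. In granule-neuron-like cells Mt2 stood at 0.415 (0.175 to 0.995), with 13 and 12 UMIs, beside 14.5% of 2092 genes. In neuroblast-like cells Mt1 stood at 0.428 (0.297 to 0.629) and Mt2 at 0.300 (0.171 to 0.543), beside 14.3% of 3193 genes lower past 1.5-fold. Summed astrocyte markers in these neuroblast-like cells were 1642 CPM in runner and 2884 CPM in control, and the part of free RNA in this difference was not tested. Cajal-Retzius-like cells had the lowest Mt1 ratio, 0.268 (0.174 to 0.408), beside 10.1% of 1537 genes lower past 1.5-fold, and 1 control cell gave 22 of the 67 control UMIs there. Their summed astrocyte markers were 1743 CPM in runner and 2090 CPM in control.

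Microglia-like cells had ratios of 0.824 for Mt1 (0.743 to 0.916), 0.781 for Mt2 (0.576 to 1.06) and 0.897 for Mt3 (0.728 to 1.11) in runner over control. None was lower past 1.5-fold, which 8.83% of 5128 genes were. This class held 6 runner cells that carried 121 UMIs of astrocyte markers and 3 of microglia markers, and these gave 138 of its 840 Mt1 UMIs. Without them the ratios were 0.694 (0.622 to 0.774), 0.677 (0.494 to 0.929) and 0.631 (0.502 to 0.793). The class was spread over 4 clusters, of which cluster 0 held the largest share of runner and aged cells (44.3% and 38.3%) and cluster 1 that of control cells (45.5%).

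In aged over control, all 3 members were below 1 in each of the 5 classes with enough cells, as were 18.4% of 343 genes counted in every one of them. In microglia-like cells Mt1 stood at 0.516 (0.445 to 0.596) and Mt3 at 0.468 (0.341 to 0.634), both lower past 1.5-fold beside 10.8% of 4040 genes. Mt2 stood at 0.679 (0.461 to 0.991). In oligodendrocyte-like cells Mt1 was at 0.686 (0.527 to 0.889), Mt2 at 0.534 (0.20 to 1.31) and Mt3 at 0.408 (0.204 to 0.767), where 17.9% of 1278 genes were lower past 1.5-fold. In oligodendrocyte-precursor-like cells, at 23, 8 and 36 aged UMIs of Mt1, Mt2 and Mt3, all 3 intervals held 1 and no difference was detectable at this depth, though Mt1 and Mt2 lay past 1.5-fold beside 19.0% of 558 genes. Cajal-Retzius-like cells had ratios of 0.393, 0.219 and 0.604 for Mt1, Mt2 and Mt3, past 1.5-fold beside 19.7% of 811 genes, with 3 aged UMIs behind the Mt2 value. Here too, 1 control cell gave 22 of the 67 control UMIs behind the Mt1 value.

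**Figure D4:**
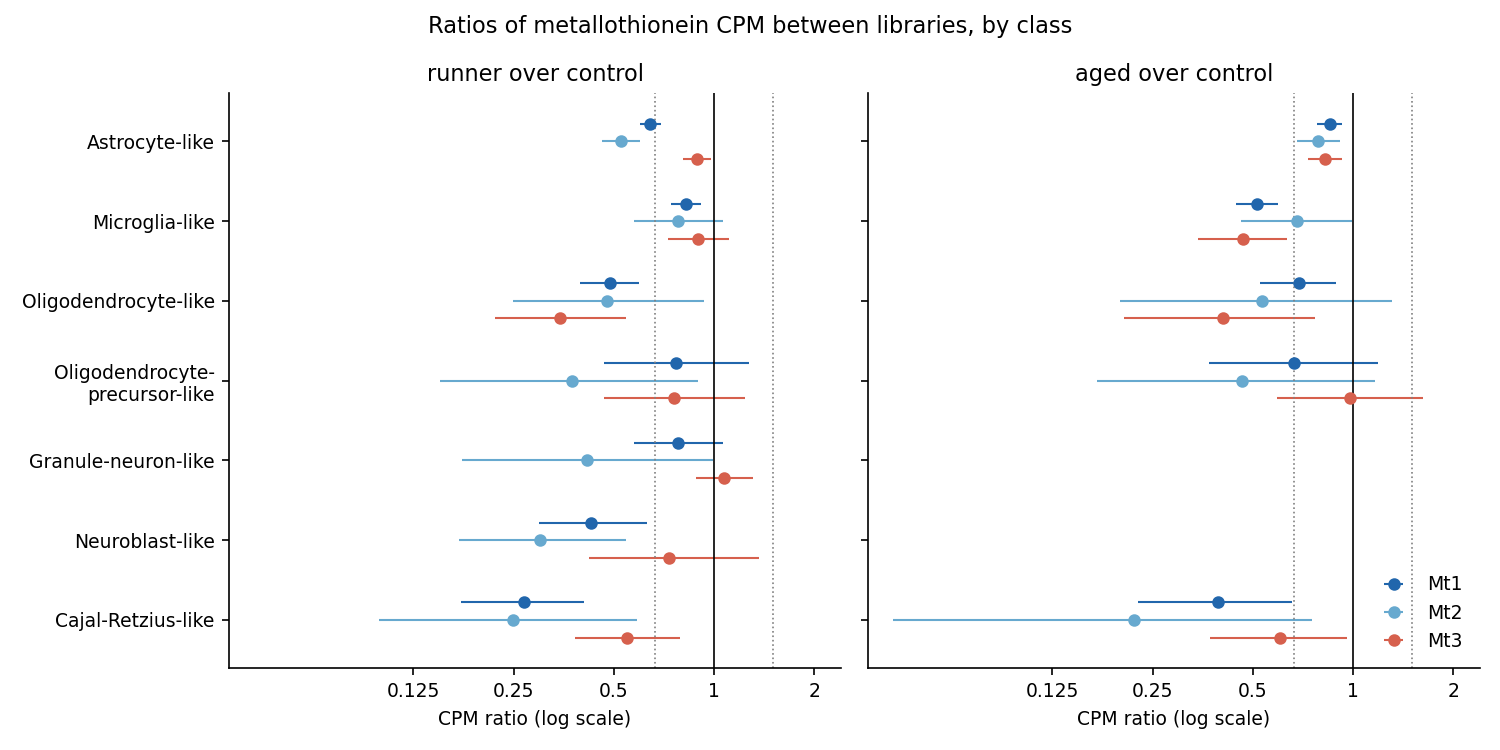
Ratio of CPM to control (log axis) for Mt1, Mt2 and Mt3 in classes with at least 20 cells in both libraries; bars are exact 95% counting intervals, the solid line marks 1 and dotted lines mark 1.5-fold. All ratios but Mt3 in granule-neuron-like runner cells, at 1.07, lie left of 1.

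The ratios were also below 1 in the sum over all cells used and over all barcodes, with no class assigned. Over all cells used, runner over control was 0.575 for Mt1, 0.456 for Mt2 and 0.780 for Mt3, and 9.20% of 10656 genes were lower past 1.5-fold. Over all barcodes it was 0.611, 0.466 and 0.826, and 6.66% of 12190 genes were lower past 1.5-fold. Aged over control was 0.774, 0.770 and 0.799 over all cells used, where 11.5% of 8055 genes were lower past 1.5-fold. It was 0.743, 0.657 and 0.922 over all barcodes, where 22.2% of 11065 genes were lower past 1.5-fold. The totals behind these CPM include mitochondrially encoded UMIs. Their median share per barcode, over all barcodes, was 42.9% in runner, 46.3% in aged and 36.6% in control. A larger share lowers the CPM of every nuclear gene, so the all-barcode ratios and shares of genes also depend on it. The astrocyte-like share of cells was 12.3%, 13.3% and 12.5% in runner, aged and control. In such sums, fewer cells of a type and less RNA per cell cannot be told apart.

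Within the astrocyte-like class the genes varied several-fold between cells. Mt1 ranged from 0 to 274 UMIs per 10000 in runner cells, with a median of 83.1. In aged cells it ranged from 10.1 to 308 with a median of 101.03, and in control cells from 12.0 to 405 with a median of 139. The middle 50% of cells spanned 44.6 to 115 in runner, 67.5 to 154 in aged and 102 to 199 in control. These spans of runner and control shared only the stretch from 102 to 115, whereas that of aged overlapped each of them more widely. Mt2 medians were 18.7, 28.7 and 47.7 per 10000, and Mt3 medians were closer together, at 57.2, 58.4 and 69.2. No Mt2 UMI was found in 18 of 118 runner, 8 of 52 aged and 3 of 64 control cells. In aged, the 6 cells with the most Mt1 UMIs held 40.4% of them, so few cells weigh heavily there. The correlation of Mt1 with Mt2 over cells, on log2 values, was 0.371 in runner, 0.588 in aged and 0.650 in control. For Mt1 with Mt3 it was 0.299, 0.506 and 0.414. These cells share a library, and cell depth itself correlated with Mt2 at 0.233, 0.369 and 0.312.

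Astrocyte-like cells were split further into 3 subclusters, again without the 3 genes. Subcluster 0 was led by the steroid enzyme gene Hsd11b1 and the peptide gene Enho, subcluster 1 by the endothelin receptor Ednrb and the amino acid carrier Slc7a10, and subcluster 2 by the early response genes Junb, Fos and Jun. Subcluster 2 also had the highest summed level of a list of stem cell markers, 6512, 6725 and 5412 CPM in runner, aged and control, against 2462 to 3658 CPM in the others. Its summed level of genes raised by tissue dissociation was 7595, 7188 and 6800 CPM, against 801 to 1895 CPM in the others. Its leading genes Junb, Fos, Jun, Dusp1 and Btg2 are on that dissociation list, and Riiad1 is on the stem cell list. These sums are therefore not separate from the clustering. Subcluster 2 took 37.3% of astrocyte-like cells in runner, 19.2% in aged and 25% in control.

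Mt1 was lower in subcluster 2 than in subcluster 0 in each library. In runner it stood at 5637 against 12718 CPM (ratio 0.443, 0.390 to 0.503), in aged at 11130 against 16520 CPM (ratio 0.674, 0.569 to 0.795), and in control at 10778 against 15805 CPM (ratio 0.682, 0.585 to 0.793). Mt2 was lower there too, by ratios of 0.771, 0.704 and 0.746. For Mt3 the ratios were 0.479 in runner, 0.485 in aged and 0.928 in control, the last with an interval that held 1 (0.765 to 1.12). Against subcluster 1, Mt1 was lower in subcluster 2 in runner (0.512) and control (0.670) but higher in aged (1.37). Stem cell markers and dissociation genes were both high in subcluster 2, whose leading genes include members of both lists. Their part in the lower Mt1 level was not tested.

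The differences between libraries were not even across subclusters. Mt1 and Mt2 were lower in runner than in control in all 3, with Mt1 ratios of 0.805, 0.684 and 0.523 in subclusters 0, 1 and 2. Mt3 ran the other way in subcluster 0, at 1.18 (1.02 to 1.36), was level in subcluster 1 at 0.983 and lower in subcluster 2 at 0.608 (0.501 to 0.740). In aged over control, Mt1 was at 1.05 (0.932 to 1.17) and 1.03 (0.849 to 1.26) in subclusters 0 and 2 and at 0.506 (0.427 to 0.598) in subcluster 1. Mt2 followed the same pattern, with 1.07, 0.349 and 1.01 in subclusters 0, 1 and 2. The aged ratios of Mt3 were 1.02, 0.775 and 0.531. Of the 3 subclusters, subcluster 1 alone, with 23 aged and 20 control cells, had Mt1 and Mt2 below control in aged. As these subclusters hold 10 to 44 cells per library, single cells can move these values.

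**Figure D5:**
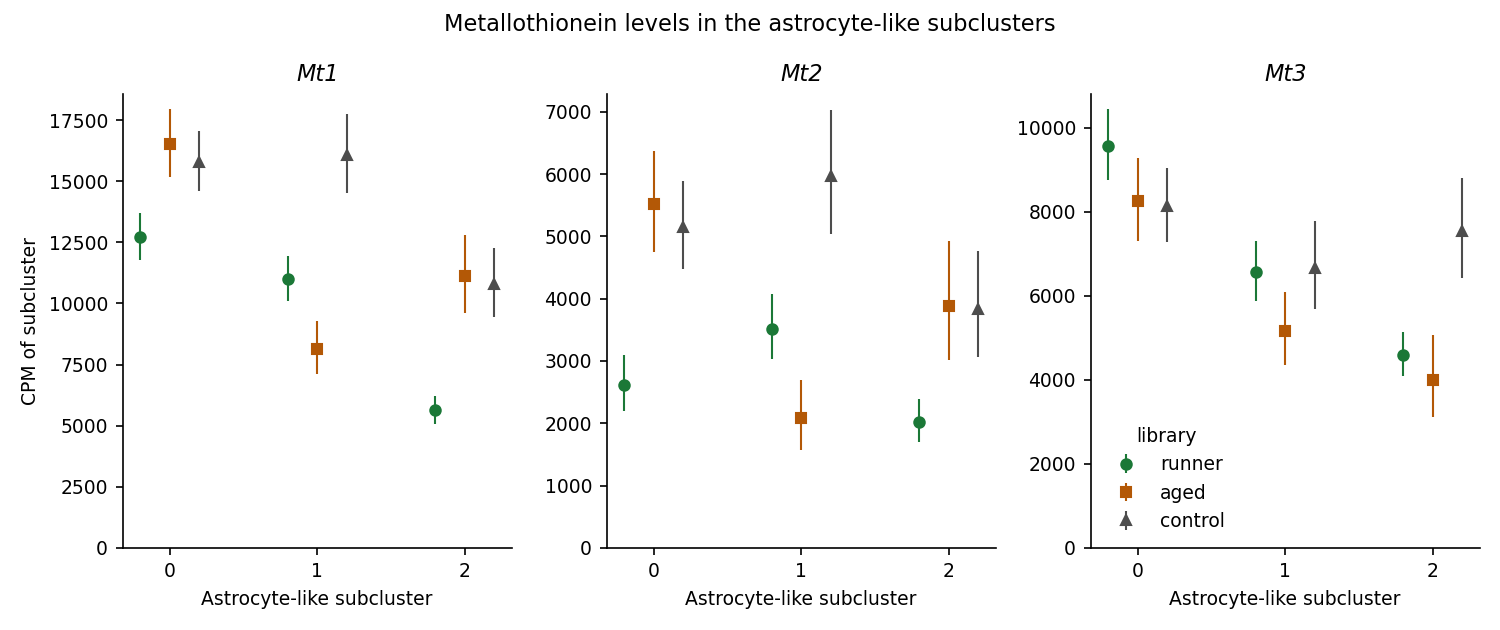
CPM of Mt1, Mt2 and Mt3 in the 3 astrocyte-like subclusters by library, with exact Poisson 95% intervals. Mt1 is lower in subcluster 2 than in subcluster 0 in each library, and the runner point is below the control point for Mt1 and Mt2 in all 3 subclusters.

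Likeness of pattern was measured by the correlation of log2(CPM + 10) over 25 points, each a class in a library, among 2548 genes. The gene most like Mt1 was Mt2 (0.869), followed by the sphingolipid receptor S1pr1 (0.775), the astrocyte membrane protein Mlc1 (0.770), the glutathione transferase Gstm1 (0.770) and the lipid carrier Apoe (0.760). The genes most like Mt2 after Mt1 were S1pr1 (0.815), the coagulation factor receptor F3 (0.766), the gap junction protein Gja1 (0.761) and the glutamate transporter Slc1a2 (0.760). Mt3 was most like the GABA receptor subunit Gabrb1 (0.810), the sodium pump subunit Atp1b2 (0.798), the bicarbonate carrier Slc4a4 (0.784), Slc1a2 (0.780) and Tmem47 (0.775). Mt1 and Mt3 correlated at 0.470, which placed Mt1 160th among genes by likeness to Mt3. The points share libraries and depth, and astrocyte markers such as S1pr1, F3, Gja1, Slc1a2, Atp1b2 and Slc4a4 were also on the list that named the class.

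Of the genes around metallothioneins, few were counted deeply enough to follow in astrocyte-like cells. Mtf1, the factor that reads zinc, had 0, 1 and 0 UMIs in runner, aged and control; a count of 0 allows up to 17.5 CPM in runner and 34.5 CPM in control. Of 22 zinc transporters and Mtf1, 2 in runner and 3 in aged had at least 20 UMIs with control, and none passed 1.5-fold with an interval that left out 1. The zinc importer Slc39a12 stood at 251, 231 and 230 CPM in runner, aged and control, and at 0 to 16.8 CPM in granule-neuron-like and microglia-like cells. The exporter Slc30a1, a classic zinc-induced gene, had 7, 2 and 2 UMIs. Slc30a10, a metal exporter, had 8, 9 and 11 UMIs, at 46.6, 116 and 127 CPM. Of 15 copper genes and 17 iron genes, 3 and 4 were counted in runner and 2 and 3 in aged, and none passed with its interval. The ferritin subunit Fth1 stood at 2453, 2902 and 3152 CPM.

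Among 24 glucocorticoid-responsive genes, 8 were counted in runner and 1 was lower past 1.5-fold with its interval, Nr3c1, the glucocorticoid receptor itself, at 69.9 CPM in runner and 184 CPM in control (12 and 16 UMIs, ratio 0.380, 0.164 to 0.856). Of all genes tested in runner, 59 of 1965 were lower in that way and 78 higher; in aged it was 45 and 54 of 1157. In aged 5 were counted and none passed. The list's median log2 ratio was -0.08 in runner and 0.00 in aged, beside 0.01 and -0.03 for all genes tested. The hormone-induced gene Fkbp5 had no UMI in astrocyte-like cells of any library, which allows up to 17.5, 38.5 and 34.5 CPM in runner, aged and control. Among 27 glutathione and redox genes, 13 were counted in runner, 1 of them above control, as were 1074 of all 1965 genes tested, and their log2 ratios had a median of -0.21. In aged 10 were counted, with a median of 0.04. The cystine carrier Slc7a11 was lower past 1.5-fold in runner, at 117 CPM against 230 CPM in control (ratio 0.507, 0.259 to 0.992), and higher in aged, at 437 CPM (ratio 1.90, 1.06 to 3.48). The lipid peroxidase Gpx4 was lower in aged, at 282 CPM against 495 CPM in control (ratio 0.571, 0.325 to 0.976).

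Of 20 genes raised by tissue dissociation, 10 were counted in runner, and 3 of these were higher past 1.5-fold with their interval, as were 78 of 1965 genes tested. These were Ier2 (32 UMIs against 3 in control, ratio 5.40, 1.69 to 27.6), Junb (344 against 184 CPM, ratio 1.87) and Jun (863 against 552 CPM, ratio 1.56). Of the 10 counted in runner, 8 were above control, as were 1074 of all 1965 genes tested. Their median log2 ratio was 0.43, beside 0.01 for all genes tested. In aged 7 were counted and none passed. Of these 7, 2 were above control, as were 548 of 1157 genes tested, and the median was -0.13 beside -0.03. The part of such genes in the metallothionein ratios was not tested. Gfap, the filament gene raised in reactive astrocytes and the promoter of the reporter, was higher in both, at 472 CPM in runner and 501 CPM in aged against 253 CPM in control (ratios 1.86, 1.15 to 3.14, and 1.98, 1.14 to 3.50). It was the only reactive astrocyte gene past 1.5-fold, with 2 of 25 counted in runner and 1 in aged. Of 15 astrocyte transport genes, all counted in runner, the amino acid carrier Slc38a3 was higher in runner (186 against 46.0 CPM in control, 32 and 4 UMIs). Of the 14 counted in aged, the water channel Aqp4 was higher (847 against 564 CPM in control, ratio 1.503, 1.02 to 2.22).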

How the data were processed

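Libraries of dissociated mouse dentate gyrus, 1 per group, were made with the 10x Genomics Chromium 3' version 2 kit after trypsin digestion, with no sort described, per the labels' protocols. The submitters' processing notes name Cell Ranger 2.1.1, Seurat 3.1.0 and the genome build GRCm38; no source at hand names the annotation, the cell calling rule or the use of strand. As deposited, each library has a table of unnormalised UMI counts by gene symbol; totals were 3808360 UMIs for runner, 2537567 for aged and 2330698 for control.

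Barcodes with at least 200 genes and under 10% mitochondrially encoded UMIs were kept, after removal of Scrublet calls (6, 2 and 2 in runner, aged and control). Doublets may remain. Cells were clustered with Scanpy 1.11.5 and leidenalg 0.10.2 (2000 variable genes, 30 components, 15 neighbours, resolution 1.0, seed 1), leaving out Mt1, Mt2 and Mt3. A cluster took the name of the marker list with the most members among its 10 leading genes, given at least 3 of that list's markers at 2-fold or more in at least 25% of its cells. A cluster in which at least 50% of cells had 3 or more proliferation genes was called cycling, and newly formed oligodendrocytes were counted as oligodendrocyte-like. By the same rule a cluster named from the pyramidal neuron list would count as granule-neuron-like, but none took that name at the reported settings. Names mean "like" that type, and the thresholds came from an earlier look at these data. UMIs were summed per class and library and scaled to CPM. Values are given with exact Poisson, Clopper-Pearson or conditional binomial 95% intervals (SciPy 1.17.1). The ratio intervals were tested on simulated Poisson counts, the model they assume. That test therefore cannot show how they hold under the spread between cells, animals or libraries. UMIs are counted after collapsing PCR copies, but intervals and floors (3 counts) still cover counting error only.

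The members, lists and markers were chosen with earlier results of these data known. Named genes were the members, the 5 genes most like each, and up to 4 per list past 1.5-fold with an interval leaving out 1; metal and hormone genes without such a call were added as named background genes. Alternatives varied the filters, the clustering, the class rule, the scaling, the depth and the subclusters, and 2 of them, on the microglia-like cells called astrocyte, were chosen after seeing the data. Promoters came from RefSeq (GRCm38.p6), gene positions from GENCODE M21 (GRCm38), matched by symbol for 3 of 3 members.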

Additional observations from a re-analysis of the deposited data

Results flagged for a closer look

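Barcodes with at least 200 genes and 10% or more mitochondrially encoded UMIs were left out of the classes described above, and the metallothioneins were well counted there. Per 1000000 nuclear-encoded UMIs, Mt1 stood at 6389 in runner, 6451 in aged and 8166 in control, over 1990, 1877 and 1789 barcodes. In barcodes under 10% the same measure was 1838, 2509 and 3269. Mt2 stood at 1278, 1480 and 2159, and Mt3 at 6289, 5559 and 5633. Summed astrocyte markers were higher there too, at 18961, 16451 and 16432 per 1000000, against 4878, 5689 and 5579 under 10%. Mt1 and Mt2 were again below control in runner, at ratios of 0.782 (0.757 to 0.809) and 0.592 (0.551 to 0.635), whereas Mt3 was above it at 1.12 (1.08 to 1.16). In aged over control the ratios were 0.790, 0.685 and 0.987. The Mt3 ratios changed when these barcodes were split at 30%. Runner over control was 1.08 (0.995 to 1.17) at 10% to 30% and 1.04 (0.995 to 1.08) at 30% or more. Aged over control was 0.909 (0.833 to 0.992) and 0.917 (0.879 to 0.956). The bin of 10% to 30% held 217 runner, 200 aged and 442 control barcodes, so the pooled values mix the bins unevenly. Mt1 and Mt2 stayed below control in each bin. When clustered with the other cells, with no mitochondrial filter, the astrocyte-like clusters held 587 and 344 cells, against 170 and 64 with the filter.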

How the results depend on the processing

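Of 102 values of the 6 astrocyte-like ratios under other settings, 84 stayed inside the interval of the reported value, 11 left it and 7 lay on the other side of 1. Resolution 2.0 repeated all 6 reported ratios. Keeping doublets, clustering with Mt1, Mt2 and Mt3 and resolution 0.5 each repeated the aged ones. The last 2 of these also gave runner ratios identical to each other. Such repeats are counted here although they are not separate results. Outside the subclusters, all 14 settings kept the runner ratios of Mt1 (0.611 to 0.715) and Mt2 (0.476 to 0.564) and the aged ratios of Mt1 (0.697 to 0.912), Mt2 (0.571 to 0.840) and Mt3 (0.784 to 0.920) below 1. The runner ratio of Mt1 was past 1.5-fold in 6 of them. With no mitochondrial filter the runner ratio of Mt1 was 0.715 and that of Mt3 was 1.01, the count of list entries past 1.5-fold in runner was 11, and Mt1 per Mt2 was 4.18, 3.74 and 3.30 in runner, aged and control. Under a filter of 5% the aged ratios of Mt1 and Mt2 were 0.697 and 0.571, 1 list entry was past 1.5-fold in aged, Mt1 per Mt2 was 2.58 in control and the correlation of Mt1 with Mt2 over aged cells was 0.752. With classes from a marker count per cell, 7 list entries passed in aged. The mean of each cell's share gave 0.658 for Mt2 in aged. Within subcluster 0 the runner ratios were 0.805 for Mt1 and 1.18 for Mt3 and the aged ratios were 1.05, 1.07 and 1.02 for Mt1, Mt2 and Mt3. Within subcluster 1 the runner ratio of Mt3 was 0.983 and the aged ratios of Mt1 and Mt2 were 0.506 and 0.349. Within subcluster 2 the runner ratios of Mt1 and Mt3 were 0.523 and 0.608 and the aged ratios were 1.03, 1.01 and 0.531. The cause of these changes was not tested. Genes past 1.5-fold at a minimum of 5 UMIs were 19.0% lower and 32.7% higher in runner and 23.3% lower and 27.3% higher in aged; at 100 UMIs 6.25% were higher in runner, and 7.02% lower and 3.51% higher in aged. The astrocyte-like class stayed first in all 27 rankings, and counting the 7 astrocyte-called cells (6 in runner, 1 in aged) of the microglia-like class as astrocyte-like, an alternative chosen after seeing the data, changed no direction. Thinning to 1000 UMIs left out 30 runner, 17 aged and 15 control astrocyte-like cells. No paired analysis was possible because each group has 1 library. Replicates could not be left out for the same reason.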
